A study of Mus musculus with 9 samples.

Results

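The genes described here are 9 genes of transforming growth factor beta (TGF-beta) signalling: the ligand genes Tgfb1, Tgfb2 and Tgfb3, the receptor genes Tgfbr1 and Tgfbr2, the signal transducers Smad2 and Smad3, the latent binding protein gene Ltbp1 and the target gene Skil. They were chosen by symbol, all 9 were found among the 23420 genes counted in each library, and all 9 passed the filter on low counts. Total RNA was prepared from ovaries of wild-type mice of the CD1 strain that were removed at E16 (embryonic day 16) and then held in culture on porous inserts for 24 hours. All groups shared a phenol red-free α-MEM with insulin, transferrin, selenium, linoleic acid, antibiotics and an antifungal. A first group received vehicle, another recombinant human BMP2 at 50 ng/ml, and the third estradiol-17β (E2) at 3.67 µM, with 3 libraries each. Groups rest on title prefixes: the series title itself abbreviates estradiol as E2, while reading B2 for BMP2 and C for vehicle is an inference. Nothing in the labels ties the 3 libraries of a group to different animals or cultures, so the spread that the p-values rest on is that among these libraries and may be technical.

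TGF-beta ligands are secreted in a latent form, in which the mature dimer stays bound to its own propeptide, and the propeptide is tied by a disulfide bond to a latent TGF-beta binding protein (LTBP) that anchors it to fibrillin microfibrils of the matrix. Integrins and proteases release the ligand, which binds the type II receptor TGFBR2; this recruits and phosphorylates the type I receptor TGFBR1, which in turn phosphorylates SMAD2 and SMAD3. BMP2 belongs to the same ligand family but acts through other type I receptors and through SMAD1 and SMAD5.

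The counts over all genes summed to 30418674 to 34320077 per library. The germ cell genes Ddx4 and Dazl and the pregranulosa cell genes Foxl2 and Lgr5 were present in all 9 libraries (173 to 192, 359 to 395, 55.7 to 66.0 and 152 to 198 CPM, the count scaled to library size), and the Y-linked genes Ddx3y and Uty had 0 counts in all. These are whole ovaries, so fewer cells of a type and less RNA per cell cannot be told apart. Genes were called at an adjusted p under 0.05 in edgeR's quasi-likelihood test with Benjamini-Hochberg adjustment over 16360 genes, and every adjusted p below is from that test unless another tool or setting is named. With BMP2, 5 of the 9 genes were higher than with vehicle (Tgfb3, Tgfbr1, Smad2, Smad3 and Ltbp1) and 0 lower, where 13.7% of all genes tested were called in either direction; no gene of the 9 was lower at an unadjusted p under 0.05 or in DESeq2 either (0 and 0). With E2, 3 were higher (Ltbp1, Smad2 and Smad3) and 2 lower (Tgfb2 and Tgfb3), against 32.3% of all genes called. Between BMP2 and E2, 2 were higher with BMP2 (Tgfb2 and Tgfb3) and 1 lower (Ltbp1), against 28.2% of all genes called. The comparisons share libraries, those with vehicle the vehicle libraries. Apart from Ltbp1, no gene of the 9 differed from vehicle by over 1.2-fold.

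**Figure D1:**
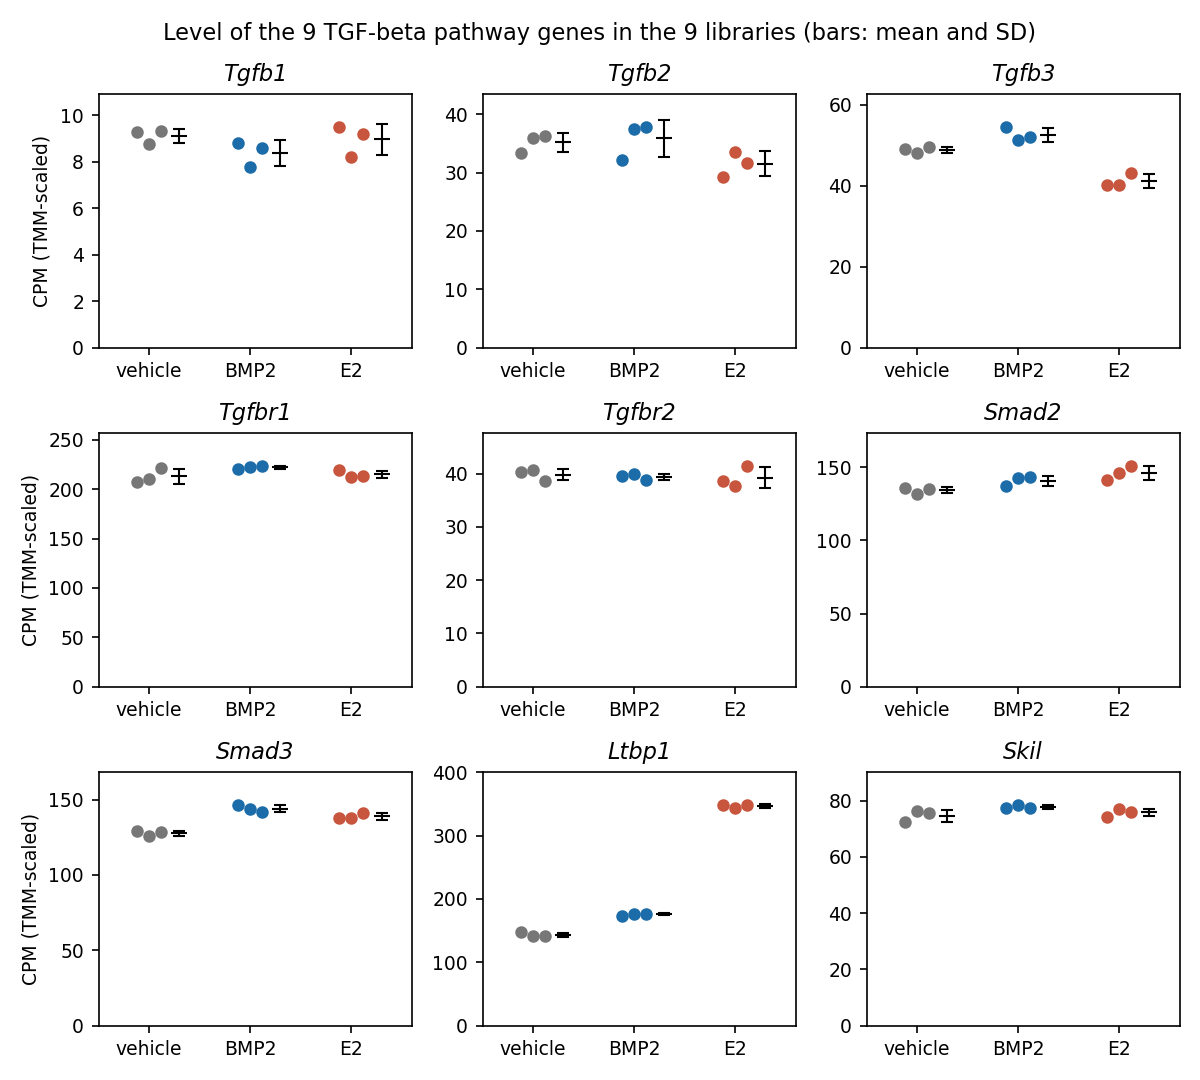
Level of each of the 9 genes in every library, as CPM scaled by library size (vertical axis, from 0), with vehicle in grey, BMP2 in blue and E2 in red; the black mark and bar give the mean and SD of 3 libraries. Ltbp1 stands at 343 to 349 CPM in the E2 libraries and at 141 to 147 with vehicle, while the points of Tgfb1 and Tgfbr2 overlap between all groups.

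The genes differed widely in level, which is compared here per length, as RPKM (CPM divided by length in kilobases) over the union of a gene's annotated exons. With vehicle the order was Tgfbr1 (32.6 ± 1.14 RPKM, mean ± SD, n = 3), Smad3 (23.0 ± 0.317), Smad2 (15.3 ± 0.231), Tgfb3 (14.4 ± 0.233), Ltbp1 (13.4 ± 0.332), Skil (7.70 ± 0.213), Tgfb2 (6.07 ± 0.277), Tgfbr2 (4.86 ± 0.131) and Tgfb1 (1.81 ± 0.0611). No neighbours in this order overlapped between libraries of the vehicle group, but the length of the gene model weighs more than that spread. Over the longest transcript in place of all exons, Ltbp1 stood at 21.5 RPKM, above Smad2 at 16.6, and Tgfb1 at 3.54. With E2, Ltbp1 reached 32.4 ± 0.284 RPKM over all exons, next to Tgfbr1 at 32.9 ± 0.547. Over the longest transcript it stood above Tgfbr1 with E2, at 52.0 against 37.4 RPKM.

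Ltbp1, whose product binds latent TGF-beta and anchors it in the matrix, was the gene of the 9 with the largest change in each comparison. Its level was 147, 141 and 141 CPM in the 3 vehicle libraries, 174, 177 and 177 with BMP2, and 348, 343 and 349 with E2. The 3 groups did not overlap, and all E2 libraries stood above all BMP2 libraries, which stood above all vehicle libraries. E2 raised Ltbp1 2.42-fold (log2 fold change 1.28 ± 0.022 SE, adjusted p = 1.42e-96), the third smallest p of the comparison and the 97th largest rise among 2577 genes called higher. BMP2 raised it 1.23-fold (log2 fold change 0.30 ± 0.023 SE, adjusted p = 8.44e-23). Set against each other, BMP2 libraries held 1.97-fold less than E2 libraries (log2 fold change -0.98 ± 0.021 SE, adjusted p = 6.22e-83). Over all alternative settings, the log2 fold change lay between 1.26 and 1.30 for E2 and between 0.28 and 0.32 for BMP2. Against a null of a 1.2-fold change, the rise with BMP2 was not called (adjusted p = 1) while that with E2 was.

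Ltbp1 lies on chromosome 17 from 75005568 to 75392512 on the plus strand (GRCm38, the build of mm10) and has an upstream and a downstream start site in RefSeq, and LTBP1 is known in a long and a short form. The gene counts do not separate transcripts. The 250 bases before each start site are shown because Ltbp1 carries the largest response of the 9 genes, followed by the window of Smad3, which was higher with both agents. All 3 were read 5′ to 3′ from RefSeq's GRCm38.p6 table, at chr17:75005279-75005528 (plus strand), chr17:75178531-75178780 (plus strand) and chr9:63757995-63758244 (minus strand), and capitals mark matches to the motifs named after them.
Ltbp1 upstream start: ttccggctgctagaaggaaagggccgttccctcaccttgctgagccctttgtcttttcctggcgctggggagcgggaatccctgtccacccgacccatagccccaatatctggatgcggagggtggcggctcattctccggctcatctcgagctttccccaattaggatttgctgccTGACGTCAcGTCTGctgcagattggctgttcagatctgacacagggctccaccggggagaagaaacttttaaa
Ltbp1 downstream start: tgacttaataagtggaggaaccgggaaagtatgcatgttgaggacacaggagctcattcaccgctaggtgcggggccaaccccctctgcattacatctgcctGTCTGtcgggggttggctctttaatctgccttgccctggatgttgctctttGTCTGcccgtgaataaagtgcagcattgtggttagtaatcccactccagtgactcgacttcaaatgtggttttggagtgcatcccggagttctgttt
Smad3: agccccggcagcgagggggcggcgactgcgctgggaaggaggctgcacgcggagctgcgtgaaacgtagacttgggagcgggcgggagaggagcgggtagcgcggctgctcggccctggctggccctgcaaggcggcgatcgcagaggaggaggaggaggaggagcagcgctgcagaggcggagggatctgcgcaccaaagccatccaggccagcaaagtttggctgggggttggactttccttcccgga

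Both strands of each window were searched for the palindromic oestrogen response element (GGTCA, any 3 bases, then TGACC), for its single arm GGTCA, for the SMAD boxes GTCTG and GTCTAGAC, for GGCGCC (a GC-rich element bound by SMADs of the BMP branch), for the cyclic AMP response element TGACGTCA, and for the AP-1 element TGANTCA. The window of the upstream Ltbp1 start held TGACGTCA 73 bases before the start, a motif in 1.55% of 32851 windows of this length, and GTCTG beside it at 64 bases. The downstream window held GTCTG at 148 and 97 bases, a motif in 42.2% of all windows. Neither Ltbp1 window held GGTCA (35.2% of all windows) or the full oestrogen element (0.0639%), and the Smad3 window held no match to any of the 7 motifs. Of the other genes with a window used here, Tgfb2 held GTCTG at 221 and 204 bases, Tgfbr2 GTCTG at 160 bases, Tgfb1 GGTCA at 233 bases, and Tgfbr1 GGTCA at 210 and GGCGCC at 233 bases before its upstream start and GTCTG at 203 and GGTCA at 121 bases before its downstream start. No window held GTCTAGAC (0.167% of all windows) or TGANTCA (6.75%), and GGCGCC was in 9.59% of all windows. GGTCA is part of the full oestrogen element, and none of the other motifs contains another. Tgfb3, Skil and Smad2 have no window here, and any windows on chromosome 18, where Smad2 lies, were left out of the selection. A match is a run of letters and says nothing about binding.

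The other LTBP genes did not follow Ltbp1. With E2, Ltbp2 was lower at 22.5 ± 0.381 against 34.4 ± 0.855 CPM (log2 fold change -0.61 ± 0.048 SE, adjusted p = 3.7e-23), Ltbp3 was lower (log2 fold change -0.16 ± 0.023, adjusted p = 1.08e-09) and so was Ltbp4 (-0.24 ± 0.028, 1.69e-13). With BMP2, Ltbp2 (log2 fold change 0.094, adjusted p = 0.152), Ltbp3 (0.024, 0.544) and Ltbp4 (-0.025, 0.618) did not pass. Per length, Ltbp1 made up 23.9 ± 0.729% of the summed RPKM of the 4 LTBP genes with vehicle, 27.7 ± 0.183% with BMP2 and 47.2 ± 0.263% with E2 (mean ± SD, n = 3), and the groups did not overlap. Ltbp3 went from 38.4 ± 0.703% with vehicle to 28.0 ± 0.183% with E2, and Ltbp4 from 30.2 ± 0.225% to 20.8 ± 0.137%. These shares were computed after the values of the LTBP genes had been seen and carry no test. They are shares of transcripts and do not measure the binding of latent TGF-beta, which the 4 genes need not share.

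**Figure D2:**
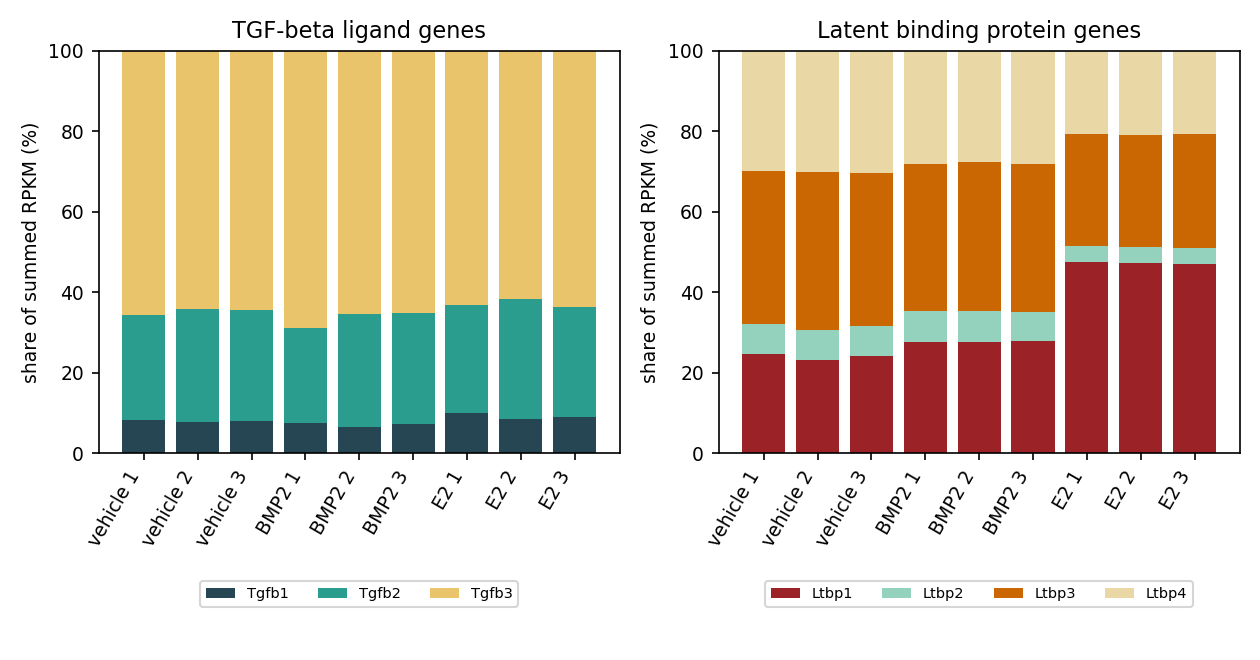
Share of each gene in the summed RPKM of the 3 TGF-beta ligand genes (left) and of the 4 latent binding protein genes (right), in percent (vertical axis), with 1 bar per library. Tgfb3 is the largest part of the ligand bars in every library, and Ltbp1 is 23.1% to 24.5% of the right bars with vehicle and 47.0% to 47.5% with E2.

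Among 17 tested genes of latency and activation (of 18 listed, the epithelial integrin gene Itgb6 being too low to test), 4 rose with E2, 7 fell and 6 did not pass, with a median log2 fold change of -0.054 beside -0.0026 over all genes. Called genes were 64.7% of the 17, against 32.3% of all genes tested. Such shares of the lists carry no test. The lists were chosen with earlier results of these data known, and all genes tested were not matched to them in level. A share above that of all genes is thus not a result about a list. The genes that rose include Itgb3, a subunit of the vitronectin receptor, from 5.01 ± 0.261 to 8.52 ± 0.509 CPM (log2 fold change 0.77 ± 0.096 SE, adjusted p = 9.99e-12), and Thbs1, whose product thrombospondin can activate latent TGF-beta, from 75.9 ± 2.85 to 115 ± 2.63 CPM (0.60 ± 0.030, 2.34e-40). The others were the integrin subunit genes Itgb1 and Itgb5 (0.12 and 0.087). Besides the 3 LTBP genes, those that fell were Fbn1, the fibrillin gene of microfibrils (-0.34 ± 0.023, 2.38e-28), Furin, the protease gene that cleaves the TGF-beta precursor (-0.24), Lrrc32, another anchor of latent TGF-beta (-0.31), and the membrane protease gene Mmp14 (-0.14). 

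With BMP2, 7 of the 17 rose, 1 fell and 9 did not pass (median log2 fold change 0.063, over all genes -0.0015). Called genes were 47.1% of the 17, against 13.7% of all genes tested. Thbs1 rose again, to 88.4 ± 3.55 CPM (log2 fold change 0.22 ± 0.030 SE, adjusted p = 1.86e-09), and so did Fbn2, a fibrillin gene of embryonic matrix (0.18 ± 0.019, 1.02e-14). Itgb3 was higher (0.37 ± 0.099, adjusted p = 0.0046), a call lost without BMP2 replicate 2 (adjusted p = 0.054). Itgb8, an integrin subunit gene whose product activates TGF-beta, was the gene that fell (-0.44 ± 0.078, 4.6e-06). Between the treatments, 10 of the 17 were higher with BMP2 and 4 lower, led by Ltbp2 (log2 fold change 0.70 ± 0.047 SE, adjusted p = 1.39e-28) and Lrrc32 (0.40 ± 0.072, 1.17e-06) on the higher side and Itgb3 (-0.40 ± 0.090, 1.78e-04) and Thbs1 (-0.37 ± 0.029, 1.44e-23) on the lower. These calls make up 82.4% of the 17, against 28.2% of all genes tested.

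**Figure D3:**
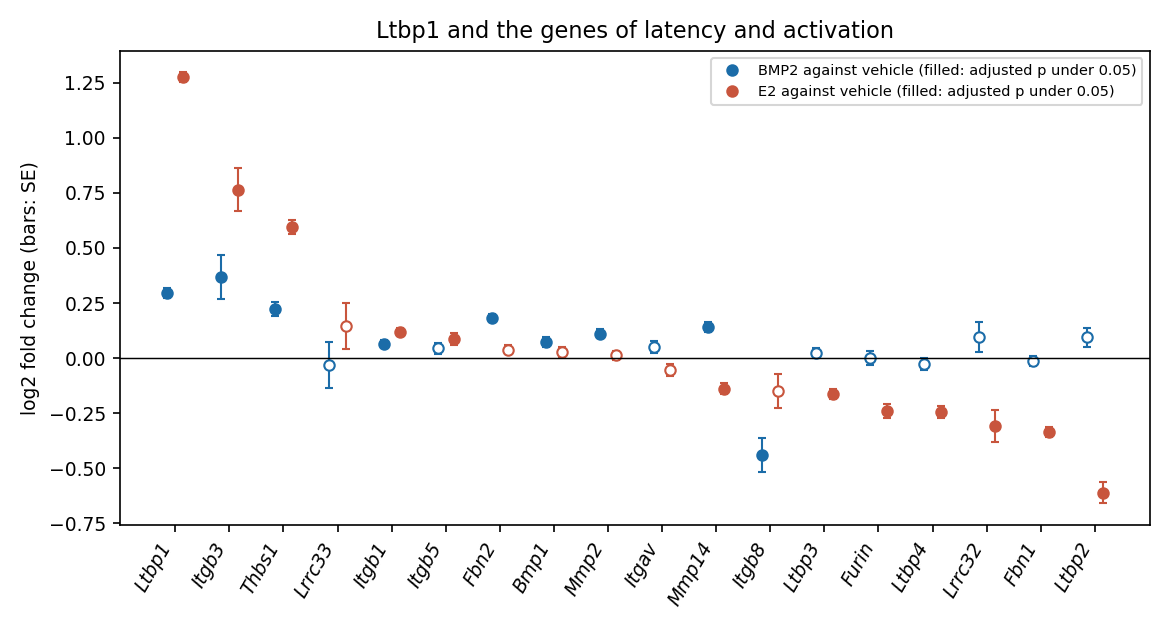
Log2 fold change against vehicle (vertical axis) of Ltbp1 and the 17 tested genes of latency and activation, with BMP2 in blue and E2 in red, bars for the SE and filled points for an adjusted p under 0.05. Ltbp1, Itgb3 and Thbs1 lead the E2 series at 1.28, 0.77 and 0.60, and Ltbp2 ends it at -0.61.

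Of the ligand genes, Tgfb3 was the main transcript. It made up 64.7 ± 0.849% of the summed ligand RPKM with vehicle, Tgfb2 27.2 ± 1.06% and Tgfb1 8.09 ± 0.233% (mean ± SD, n = 3; over the longest transcript, Tgfb3 58.1% and Tgfb1 14.2%). Tgfb3 stood at 49.1, 47.9 and 49.4 CPM with vehicle, 54.6, 51.2 and 52.1 with BMP2, and 40.1, 40.3 and 43.2 with E2. The 3 groups did not overlap, with BMP2 highest and E2 lowest. E2 lowered it 1.19-fold (log2 fold change -0.25 ± 0.039 SE, adjusted p = 6.44e-08). BMP2 raised it 1.08-fold (log2 fold change 0.11 ± 0.037, adjusted p = 0.0375), but this call was lost in DESeq2 (adjusted p = 0.122), without BMP2 replicate 1 (0.251) or 3 (0.0615), and without vehicle replicate 1 (0.0796) or 2 (0.125). The difference between the treatments was 1.28-fold (log2 fold change 0.35 ± 0.039, adjusted p = 1.97e-14), and against a null of 1.2-fold it did not pass (adjusted p = 0.0528). Tgfb3 lies on chromosome 12 from 86056745 to 86079041 on the minus strand, and antisense gene models cover 4.82% and 7.60% of its exon bases. The library kit does not mark strand, so reads of those models cannot be told apart from reads of Tgfb3 there.

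Tgfb2 stood at 33.3, 36.0 and 36.2 CPM with vehicle, 32.2, 37.5 and 37.9 with BMP2, and 29.2, 33.5 and 31.7 with E2. The BMP2 and vehicle libraries overlap, and the highest E2 library lies just above the lowest vehicle library. E2 lowered Tgfb2 1.12-fold (log2 fold change -0.16 ± 0.049 SE, adjusted p = 0.00787), a call lost without E2 replicate 1 (adjusted p = 0.114) and, narrowly, in DESeq2 (adjusted p = 0.0503). BMP2 against vehicle did not pass (log2 fold change 0.028, 95% confidence interval -0.066 to 0.12, adjusted p = 0.772), while BMP2 was 1.14-fold higher than E2 (log2 fold change 0.19 ± 0.049, adjusted p = 0.00158). Tgfb1, the ligand gene best known from platelets and immune cells, rested on 258 to 317 reads per library. It stood at 9.11 ± 0.308 CPM with vehicle, 8.38 ± 0.550 with BMP2 and 8.95 ± 0.679 with E2, with all groups overlapping. No comparison of Tgfb1 passed: the log2 fold change was -0.12 with BMP2 (95% confidence interval -0.28 to 0.041, adjusted p = 0.376), -0.027 with E2 (-0.19 to 0.14, 0.843) and -0.094 between the treatments (-0.26 to 0.070, 0.439). Summed over the 3 genes, ligand RPKM was 22.3 ± 0.348 with vehicle, 23.4 ± 0.242 with BMP2 and 19.4 ± 0.640 with E2.

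The receptor genes changed little. Tgfbr1, on chromosome 4 from 47353222 to 47414931, stood at 207, 210 and 221 CPM with vehicle, 220, 223 and 224 with BMP2, and 219, 213 and 214 with E2. Vehicle replicate 3 lies among the BMP2 libraries. BMP2 raised it 1.04-fold (log2 fold change 0.062 ± 0.022 SE, adjusted p = 0.0394), a call lost in DESeq2 (adjusted p = 0.102), with only the compared groups in the fit (0.052), and without BMP2 replicate 1 (0.0654), 2 (0.0855) or 3 (0.125) or vehicle replicate 1 (0.325) or 2 (0.121). E2 against vehicle did not pass (0.015, 95% confidence interval -0.028 to 0.059, adjusted p = 0.646). BMP2 against E2 did not pass either (0.047 ± 0.022, adjusted p = 0.0983), though it did in the fit corrected for GC content and length (log2 fold change 0.080, adjusted p = 3.24e-04). Tgfbr2, which binds the ligand, stood at 39.8 ± 1.07, 39.4 ± 0.565 and 39.3 ± 2.01 CPM with vehicle, BMP2 and E2, all groups overlapping. Its log2 fold changes were -0.013 (interval -0.095 to 0.068) with BMP2 and -0.020 (-0.10 to 0.063) with E2. Per length, Tgfbr1 was 87.0 ± 0.675% of the summed RPKM of both receptor genes with vehicle, 87.6 ± 0.216% with BMP2 and 87.3 ± 0.619% with E2.

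Of 6 co-receptor and modulator genes, 0 passed with BMP2 (0 at an unadjusted p under 0.05 and 0 in DESeq2), and with E2 1 rose, 2 fell and 3 did not pass. Called genes were 0% and 50% of the list, against 13.7% and 32.3% of all genes tested. Acvrl1, a type I receptor gene of endothelium, fell with E2 (log2 fold change -0.31 ± 0.055 SE, adjusted p = 1.18e-06), as did the decoy receptor gene Bambi (-0.19 ± 0.033, 8.22e-07), while the co-receptor gene Cd109 rose (0.30 ± 0.073, 5.45e-04). The same 3 genes separated the treatments (50% of the list, against 28.2% of all genes), with BMP2 above E2 for Acvrl1 (0.31) and Bambi (0.21) and below it for Cd109 (-0.33).

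**Figure D4:**
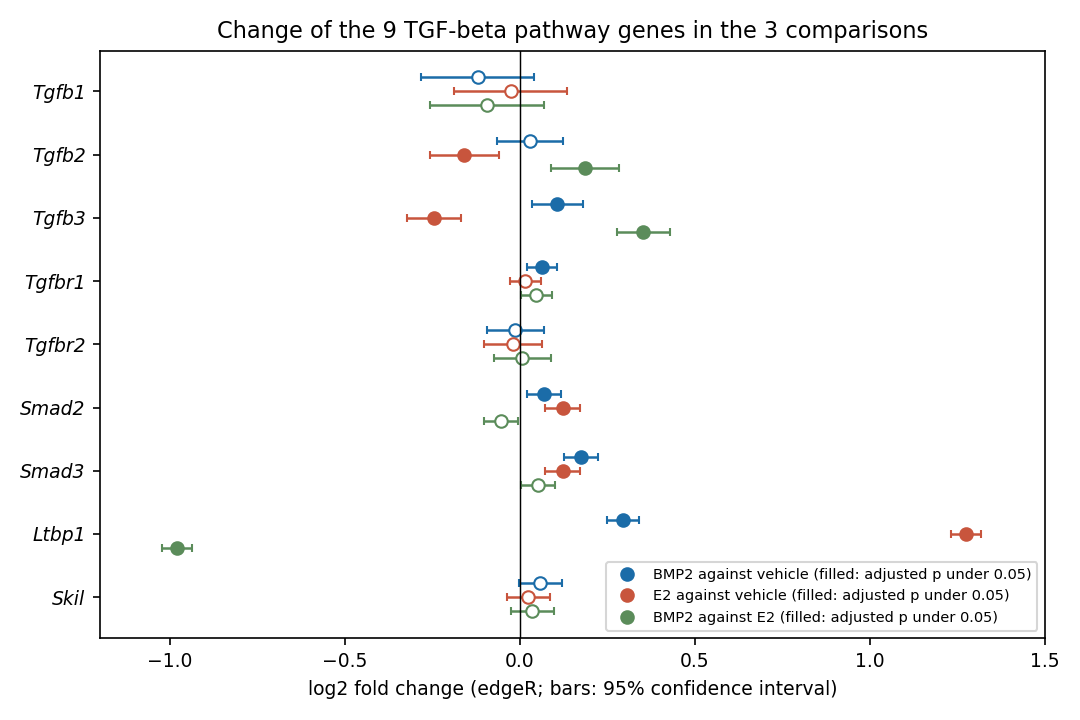
Log2 fold change (horizontal axis) of the 9 genes for BMP2 against vehicle in blue, E2 against vehicle in red and BMP2 against E2 in green, with 95% confidence intervals and filled points for an adjusted p under 0.05. Ltbp1 at 1.28 with E2 lies far from the other points, and Tgfb3 is at 0.11 with BMP2 and -0.25 with E2.

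Smad3 rose with both agents. It stood at 129, 126 and 128 CPM with vehicle, 147, 144 and 142 with BMP2, and 138, 138 and 141 with E2, so that every treated library lay above every vehicle library. The rise was 1.13-fold with BMP2 (0.17 ± 0.025 SE on the log2 scale, adjusted p = 5.52e-09) and 1.09-fold with E2 (0.12 ± 0.025, adjusted p = 2.4e-05). The difference between the treatments did not pass (0.053, 95% confidence interval 0.0041 to 0.10, adjusted p = 0.0991). Smad3 is on chromosome 9 from 63646767 to 63757994 on the minus strand.

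Smad2 stood at 136, 132 and 135 CPM with vehicle, 137, 142 and 143 with BMP2, and 142, 146 and 151 with E2. No treated library fell to the vehicle range, although BMP2 replicate 1 is just above the highest vehicle library. It rose 1.09-fold with E2 (log2 fold change 0.12 ± 0.025 SE, adjusted p = 2.52e-05) and 1.05-fold with BMP2 (0.069 ± 0.025, adjusted p = 0.048). The BMP2 call was lost in DESeq2 (adjusted p = 0.133), with only the compared groups (0.0544), in the fit corrected for GC content and length (0.0526), and without BMP2 replicate 2 (0.149) or 3 (0.209) or vehicle replicate 1 (0.066) or 2 (0.166). BMP2 against E2 did not pass (-0.053 ± 0.025, adjusted p = 0.0976) except without E2 replicate 1 (adjusted p = 0.0316). Smad2 was 39.9 ± 0.0423% of the summed Smad2 and Smad3 RPKM with vehicle, 38.2 ± 0.970% with BMP2 and 39.9 ± 0.462% with E2.

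Of 15 genes of SMAD partners and inhibitors, 1 fell with BMP2 and 14 did not pass, and with E2 3 rose, 1 fell and 11 did not pass. These are 6.67% and 26.7% of the list, below the 13.7% and 32.3% of all genes called, so the counts say nothing particular about it. Tgif1, a corepressor gene of SMAD2, stood at 41.4 ± 1.27 CPM in vehicle libraries, 38.2 ± 1.77 in BMP2 libraries and 45.1 ± 0.263 in E2 libraries. It fell with BMP2 (-0.12 ± 0.041 SE on the log2 scale, adjusted p = 0.0408), rose with E2 (0.12 ± 0.040, adjusted p = 0.012) and was lower with BMP2 than with E2 (-0.24 ± 0.040, adjusted p = 4.1e-07). Its BMP2 call was lost in DESeq2 (adjusted p = 0.131), with no filter on low counts (0.0514), with only the compared groups (0.0517), and without BMP2 replicate 2 (0.288) or 3 (0.0654) or vehicle replicate 1 (0.1) or 3 (0.171), and its E2 call without vehicle replicate 2 (0.0722). Smurf2, a ubiquitin ligase gene that acts on the receptors, rose with E2 (0.14 ± 0.024, 7.45e-07). Smaller E2 calls were Zfyve9, which presents SMAD2 to the receptor (0.096, adjusted p = 0.0171), and the inhibitory Smad7 (-0.13, adjusted p = 0.0431). Both were lost in DESeq2 (adjusted p = 0.0552 and 0.113), in the fit corrected for GC content and length (0.141 and 0.107) and without vehicle replicate 2 (0.0695 and 0.171) or E2 replicate 2 (0.202 and 0.134), and that of Smad7 also with no filter (0.056) and without vehicle replicate 1 (0.0911) or E2 replicate 1 (0.0659) or 3 (0.0754). Between the treatments, 3 were higher with BMP2 and 2 lower (33.3% of the list, against 28.2% of all genes). Smad7 was higher (0.20 ± 0.053, adjusted p = 0.00183), Smurf2 lower (-0.12 ± 0.024, 3.3e-05) and Tgif2 higher by little (0.085, adjusted p = 0.0427). The Tgif2 call was lost in DESeq2 (0.112), in the fit corrected for GC content and length (0.157) and without any BMP2 or E2 library in turn (0.0529 to 0.179).

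Skil encodes SnoN, a corepressor of SMAD2 and SMAD3 whose own gene is an early target of TGF-beta. It stood at 72.3, 76.1 and 75.4 CPM with vehicle, 77.2, 78.5 and 77.2 with BMP2, and 74.3, 77.0 and 76.1 with E2. The BMP2 libraries all lie above the others of both groups, but close to them, and the vehicle and E2 libraries overlap. No comparison passed: the log2 fold change was 0.058 with BMP2 (95% confidence interval -0.0028 to 0.12, adjusted p = 0.225), 0.024 with E2 (-0.038 to 0.086, 0.616) and 0.035 between them (-0.027 to 0.096, 0.447). Its relative Ski did not pass against vehicle (0.066 with BMP2, adjusted p = 0.0546, and -0.0082 with E2, 0.841). Ski was higher with BMP2 than with E2 (0.074, adjusted p = 0.0137, in DESeq2 0.0385), a call lost in the fit corrected for GC content and length (0.11).

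Of 24 further TGF-beta target genes, 4 rose with E2, 13 fell and 7 did not pass, and the median log2 fold change was -0.16. Called genes were 70.8% of the list, against 32.3% of all genes tested. Snai2, a repressor gene of epithelial junctions, rose from 30.3 ± 1.98 to 49.3 ± 1.30 CPM (log2 fold change 0.70 ± 0.043 SE, adjusted p = 6.93e-32). Tgfbi, a matrix protein gene named for its induction by TGF-beta, fell from 187 ± 1.68 to 125 ± 1.44 CPM (-0.58 ± 0.023, 1.45e-50). Cdkn2b, a cell cycle inhibitor gene, fell at low abundance, 1.76 ± 0.281 against 2.86 ± 0.186 CPM (-0.70 ± 0.16, 1.81e-04), and the AP-1 gene Junb fell from 10.7 ± 0.666 to 7.69 ± 0.953 CPM (-0.47 ± 0.083, 6.31e-07). The collagen genes Col1a1 (-0.35), Col3a1 (-0.32) and Col1a2 (-0.059) were among those that fell, and the periostin gene Postn (0.43) among those that rose. The list thus held calls in both directions. 

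With BMP2, 5 of the 24 rose, 7 fell and 12 did not pass (median log2 fold change -0.0097). Called genes were 50% of the list, against 13.7% of all genes tested. Junb rose to 15.7 ± 1.2 CPM (log2 fold change 0.55 ± 0.072 SE, adjusted p = 3.13e-10). Ctgf, which encodes a matricellular protein, fell (-0.34 ± 0.086, adjusted p = 0.00255), a call lost without vehicle replicate 1 (adjusted p = 0.0584), and so did the cell cycle inhibitor gene Cdkn1a (-0.29 ± 0.050, 3.54e-06). Between the treatments, 10 were higher with BMP2 and 6 lower, led by Junb (1.02 ± 0.077, adjusted p = 8.35e-25), Snai2 (-0.81 ± 0.043, 1.03e-37), Cdkn2b (0.75 ± 0.16, 4.66e-05) and Tgfbi (0.52 ± 0.023, 4.99e-45). These calls make up 66.7% of the list, against 28.2% of all genes tested. Klf10, an early TGF-beta response gene (-0.028 with BMP2 and -0.022 with E2, adjusted p = 0.673 and 0.688), and Pmepa1, a feedback inhibitor gene (0.12 and -0.024, 0.253 and 0.839), did not pass; both were picked after their values were seen.

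**Figure D5:**
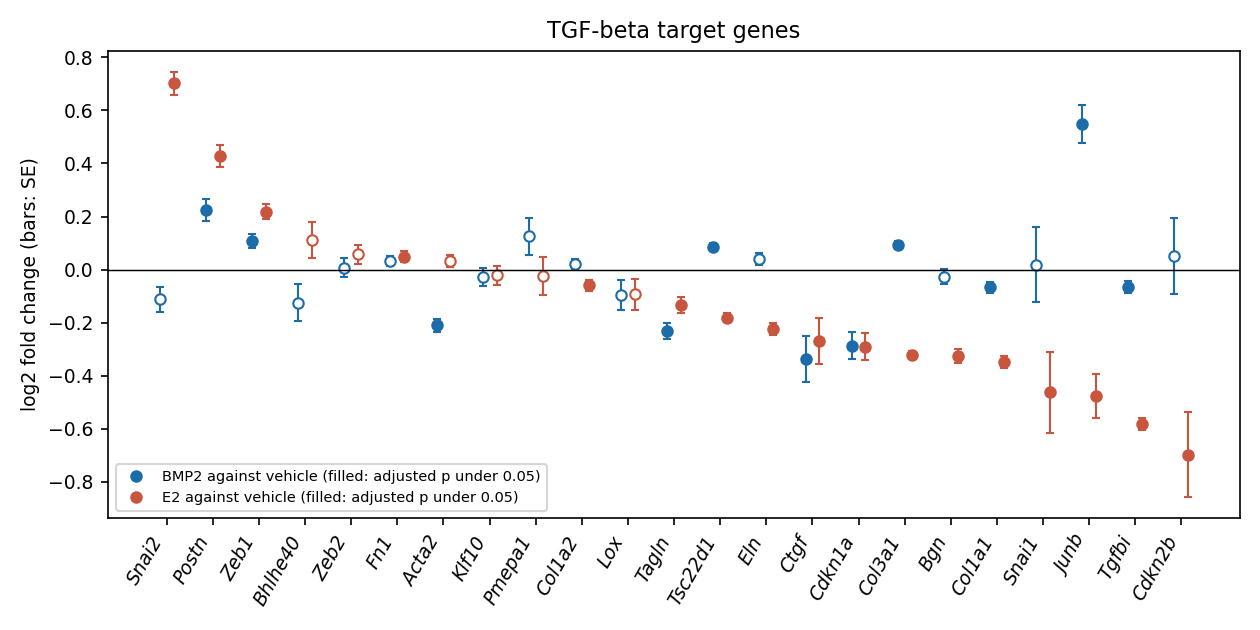
Log2 fold change against vehicle (vertical axis) of the TGF-beta target genes but for 1 not reported here, ordered by the E2 value, with BMP2 in blue and E2 in red, bars for the SE and filled points for an adjusted p under 0.05. The E2 points run from 0.70 for Snai2 to -0.70 for Cdkn2b, and Junb lies at 0.55 with BMP2 and -0.47 with E2.

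Genes of cell types that could carry these transcripts also moved. The counts below stand beside 13.7% of all genes tested called with BMP2 and 32.3% called with E2. Among 9 smooth muscle and pericyte genes, 1 rose with E2 (Myh11, from 59.6 ± 0.689 to 202 ± 2.80 CPM) and 1 fell (Tagln, -0.13), while with BMP2 0 rose and 3 fell (Des, -0.38, Acta2, -0.21, and Tagln, -0.23; Acta2 and Tagln are also in the target list). With BMP2, 1 of the 9 was higher at an unadjusted p under 0.05 and 0 in DESeq2. The sum of the list was 452 to 466 CPM in vehicle libraries, 420 to 422 in BMP2 libraries and 592 to 606 in E2 libraries. Without Myh11, a split chosen after its value was seen, the sum was 392 to 407, 361 to 365 and 392 to 401 CPM in the same order. Of 7 stroma genes, which include Col1a1 and Col3a1, 3 rose and 4 fell with E2, or 2 and 3 in DESeq2 (sum 2782 to 2832 CPM with vehicle, 2883 to 2927 with BMP2, 2304 to 2365 with E2). With BMP2, 1 rose (Col3a1, 0.091) and 2 fell (Col1a1, -0.067, and Tcf21, -0.11). Both falls were lost in DESeq2 (adjusted p = 0.32 and 0.153), and that of Tcf21 also in the fit corrected for GC content and length (0.0829). Without Col3a1, also chosen after its value was seen, the other 6 summed to 872 to 894, 851 to 856 and 789 to 800 CPM, so that the BMP2 libraries lay below the vehicle libraries and not above them. Of 5 pregranulosa genes, 1 rose with E2 (Wnt4, 0.43) and 2 fell (Kitl, -0.33, and Lgr5, -0.33), while with BMP2 3 rose (Foxl2, 0.21, Wnt4, 0.076, and Kitl, 0.055) and 1 fell (Lgr5, -0.11). The BMP2 call of Wnt4 was lost in DESeq2 (adjusted p = 0.0895) and in the fit corrected for GC content and length (0.0535). This list summed to 1403 to 1464 CPM in vehicle, 1466 to 1472 in BMP2 and 1221 to 1236 in E2 libraries, with no overlap. Most of each sum was Kitl, a gene singled out after its value was seen. Kitl alone stood at 770 to 779 CPM across E2 libraries, 949 to 1007 across vehicle libraries and 1010 to 1024 across BMP2 libraries. The separation of these sums thus largely follows Kitl and does not show a shift of the whole list. Of 5 germ cell genes, Kit and Ddx4 rose with E2 (0.34 and 0.097) and with BMP2 (0.23 and 0.12), and Stra8 fell with E2 (-0.33), while the sums overlapped (891 to 951, 928 to 954 and 939 to 951 CPM). All 7 surface epithelium genes fell with either agent (621 to 646, 543 to 556 and 427 to 434 CPM). Of 6 macrophage genes 4 fell with E2 (72.6 to 75.4, 68.9 to 70.9 and 63.4 to 63.6 CPM). Of 6 endothelial genes 5 rose with E2 and 1, Kdr, fell (-0.32), while the sums overlapped (208 to 215, 211 to 218 and 206 to 219 CPM). Kdr, singled out after its value was seen, was the largest part of each sum, at 109 to 111 CPM with vehicle and 85 to 91.2 with E2. The overlap of these sums thus does not show an unchanged list. With BMP2, Cdh5 (0.19) and Tie1 (0.20) rose and 0 fell, and the Tie1 call was lost in DESeq2 (adjusted p = 0.123). Platelet genes summed to 2.87 to 4.25, 4.44 to 5.18 and 2.95 to 3.76 CPM, with Ppbp at 0 in E2 replicates 1 and 2. Of 3 tested, only Ppbp was called with BMP2, as higher (log2 fold change 3.08, adjusted p = 1.63e-07). It lies near the floor, at 0.610 to 0.849 CPM with BMP2 and 0.0309 to 0.146 with vehicle. The higher platelet sum with BMP2 rests in part on Ppbp. Except for the Y-linked genes, no gene of these lists was at 0 in all libraries. The part of these cells in the changes of Ltbp1, the ligand genes and the targets was not tested.

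Ltbp1 and Tgfb3 differed by over 1.2-fold in some comparison, and for these the genes of most similar profile were sought among the other 14390 tested genes with a mean of at least 1 CPM. Likeness was the root-mean-square difference of log2 CPM, centred on each gene's mean, over the 9 libraries. Nearest to Ltbp1 were Col22a1 (0.0708), Nxnl2 (0.0871) and Slc35f1 (0.103), where the median gene lay at 0.552. Their log2 fold changes were 1.33, 1.39 and 1.25 with E2 and 0.23, 0.33 and 0.086 with BMP2. Nearest to Tgfb3 were Akap5 (0.0195), Hs3st1 (0.0332) and Cdk5 (0.0361), where the median gene lay at 0.170, with log2 fold changes of -0.28, -0.29 and -0.22 with E2 and 0.090, 0.11 and 0.094 with BMP2. All these profiles come from the same libraries.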

How the data were processed

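The authors deposited read counts per gene, each library in its own table. TopHat2, HTSeq, DESeq2 and the build mm10 appear in the submitters' processing notes, with no versions. The annotation and strand setting used in counting were not given in the sources used. The TruSeq kit, per the labels' protocols, does not mark strand. Rows for reads given to no gene (38.2% to 39.7% of each library) were left out. Counts of all 9 libraries were fitted with edgeR 4.0.16 in R 4.3.3: filterByExpr defaults (minimum count 10, minimum total 15; 16360 genes kept), TMM factors, robust quasi-likelihood fit with a mean per group, F test per pair of groups, Benjamini-Hochberg adjustment over all genes tested. The SE was derived as |log2 fold change|/√F. CPM and RPKM use TMM-scaled library sizes, and lengths are from GENCODE vM21 (23037 of 23420 symbols matched). 

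The genes and lists were chosen with earlier results of these data known. All 9 genes are named, with the 4 called genes of largest change per pathway list and comparison (mean of at least 1 CPM in the higher group); others were picked after their values were seen. A gene of the target list that the rule names is counted in the list but not reported here. Under older symbols, Nrros was found as Lrrc33 and Adgre1 as Emr1. Promoter windows were used for 6 of the 9 genes, with any on chromosome 18, where Smad2 lies, left out. Alternatives were DESeq2 1.42.0, median-ratio factors, no filter, a mean CPM of at least 1, only the compared groups, a replicate block, leaving out each library, a 1.2-fold null (glmTreat), and an offset removing trends on GC content and transcript length (splines, 5 degrees of freedom, 99.07% of tested genes).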

Additional observations from a re-analysis of the deposited data

How the results depend on the processing

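Of the 9 genes' results under the alternatives, none reversed among those called. The number of the 9 called higher with BMP2 (5) was 2 in DESeq2, 3 with only the compared groups, 4 in the fit corrected for GC content and length, 2 to 5 without each library in turn, and 0 against a 1.2-fold null. The number called lower with E2 (2) was 1 in DESeq2, 1 to 2 without each library and 0 against the 1.2-fold null, and the number higher (3) was 1 against that null. Between BMP2 and E2, the number higher with BMP2 (2) was 0 against the 1.2-fold null and 3 in the fit corrected for GC content and length. The number lower (1) was 1 to 2 without each library. Over all genes, 1119 higher and 1120 lower with BMP2 became 722 and 687 in DESeq2. Against the 1.2-fold null the counts were 43 and 27 for BMP2, 531 and 346 for E2 (from 2577 and 2701), and 296 and 488 for BMP2 against E2 (from 2310 and 2297). Most calls here are thus of changes too small to pass that null, and DESeq2's other losses were not traced (the cause was not tested).

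With the replicate block, counts were 1252 higher and 1260 lower for BMP2, 2705 and 2807 for E2 and 2442 and 2433 between them, and no call of the 9 genes changed. Same-numbered libraries correlated at -0.00903 to 0.0709 (deviations from group means) and others at -0.0414 to 0.0358. No correlation reached 0.1, a cutoff set by choice, and the numbers were not taken to pair libraries. A library's best match in another group was its own number in 12 of 18 cases, where no pairing would give 6. Pairing is thus not excluded. Of 39 pathway gene results named by the rule, 24 did not pass the 1.2-fold null and 7 lost their call under some other alternative. Lengths matter for levels: over the longest transcript, Ltbp1 was 26.6% of LTBP RPKM with vehicle and 50.5% with E2. Tgfb1 is limited by its depth of 258 to 317 reads.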
